A study of Danio rerio with 6 samples.

Results

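Fibroblast growth factor (FGF) signalling genes were followed across 3 cell populations of Tg(fli1:EGFP) zebrafish. The line carries a green fluorescent reporter under regulatory sequence of fli1a, which is active in vessels, some blood cells and pharyngeal arch tissue. All 6 RNA-seq libraries carry this transgene, 2 each from the populations labelled Fli1-, Low-Fli1+ and High-Fli1+. The labels give neither age, stage nor treatment and do not say how the populations were separated. The series' design text speaks only of samples run in duplicate, without saying whether the 2 came from separate embryos, so p-values measure the spread between these libraries, which may be technical. The genes were chosen by name: every entry that starts with fgf and a digit, fgfr, fgfbp, spry or spred and a digit, plus dusp6. This gave 53 of the 29126 named genes, of which 25 encode secreted ligands, 7 intracellular FGF homologous factors, 5 receptor tyrosine kinases, 2 receptor-like proteins without a kinase, 3 FGF binding proteins, 3 Sprouty proteins, 4 Spred proteins and 1 the ERK phosphatase Dusp6. The other 3, fgfr1bl, fgfr1op and fgfr1op2, matched by name alone. RefSeq lists fgfr1op as cep43, a centrosomal protein gene, and fgfr1op2 has no known role in FGF signalling.

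Secreted FGFs bind receptor tyrosine kinases together with heparan sulfate and switch on the Ras-ERK cascade. That cascade turns on transcription factors of the PEA3 group, such as etv4, etv5a and etv5b, and its own inhibitors, including Sprouty, Spred and Dusp6. The inhibitors are therefore widely read as reporters of the pathway. In fish embryos FGFs pattern the pharyngeal arches, the fins and the brain, and in vertebrates they regulate cartilage growth and vessel sprouting. The intracellular homologous factors are not secreted; in mammals they bind voltage-gated sodium channels of neurons.

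Values are FPKM (fragments mapped to a gene, scaled to transcript length and to the total of mapped fragments), which are per length, so levels of different genes can be set side by side; sequencing depth is unknown. The reporter's own gene followed the labels, with fli1a at 1.04 and 5.55 FPKM in the Fli1- libraries, 66.8 and 52.0 in the Low-Fli1+ libraries and 241 and 192 in the High-Fli1+ libraries. Each population held markers of several cell types. Summed FPKM of 15 cartilage markers was 298 to 395 in Fli1-, 2087 to 2318 in Low-Fli1+ and 14756 to 17755 in High-Fli1+, and all 15 were above 0 in every library. Summed FPKM of 18 arch and crest markers was 130 to 157, 345 to 432 and 878 to 956. For 20 endothelial markers it was 27.5 to 30.0, 32.8 to 52.3 and 216 to 227; kdr, pecam1 and clec14a were listed at 0 in both Fli1- libraries, and clec14a and etv2 in both Low-Fli1+ libraries. For 13 neuronal markers it was 1947 to 2253, 949 to 1393 and 86.9 to 208, and for 13 neural progenitor markers 984 to 1119.9, 397 to 417 and 56.7 to 98.3. For 13 erythroid markers it was 34429 to 43213, 3307 to 5291 and 91.4 to 99.3. The 14 myeloid markers summed highest in Low-Fli1+, at 738 to 1131 against 27.96 to 28.02 in Fli1- and 172 to 217 in High-Fli1+. For 14 gut, liver and pancreas markers the sum was 487 to 692, 62.6 to 76.2 and 8.47 to 30.1, for 15 epidermal markers 788 to 1309, 419 to 468 and 997 to 1223, and for 16 muscle markers 68.2 to 129, 54.95 to 236 and 77.7 to 90.5. The epidermal sum does not stand for all its markers. Both High-Fli1+ libraries lay below both Fli1- libraries for 10 of the 15 and above them for 2 (over all genes 44.2% and 21.6%). Their median log2 fold change was -2.50. In such bulk samples fewer cells of a type and less RNA per cell cannot be told apart, and the part of these shifts in the results below was not tested.

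Of the 53 genes, 28 were above 0 in all 6 libraries and 2, fgf9 and fgf21, were listed at 0 in all of them. The 43 with a mean of at least 0.5 FPKM entered the test, and the highest value among the other 10 was 1.99 FPKM, for fgf5 in 1 High-Fli1+ library. A gene can pass this minimum through a single population, as fgf10b, fgf22 and fgf20a did. Receptors, binding proteins, Sprouty, Spred and dusp6 were all above the minimum, while 10 of 25 ligand genes were not. The plot of all genes by library shows fgfr2, fgfr3 and fgfbp2b brightest in the High-Fli1+ columns, ligands that are mostly dark, and intracellular factors that are dim in the High-Fli1+ columns.

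**Figure D1:**
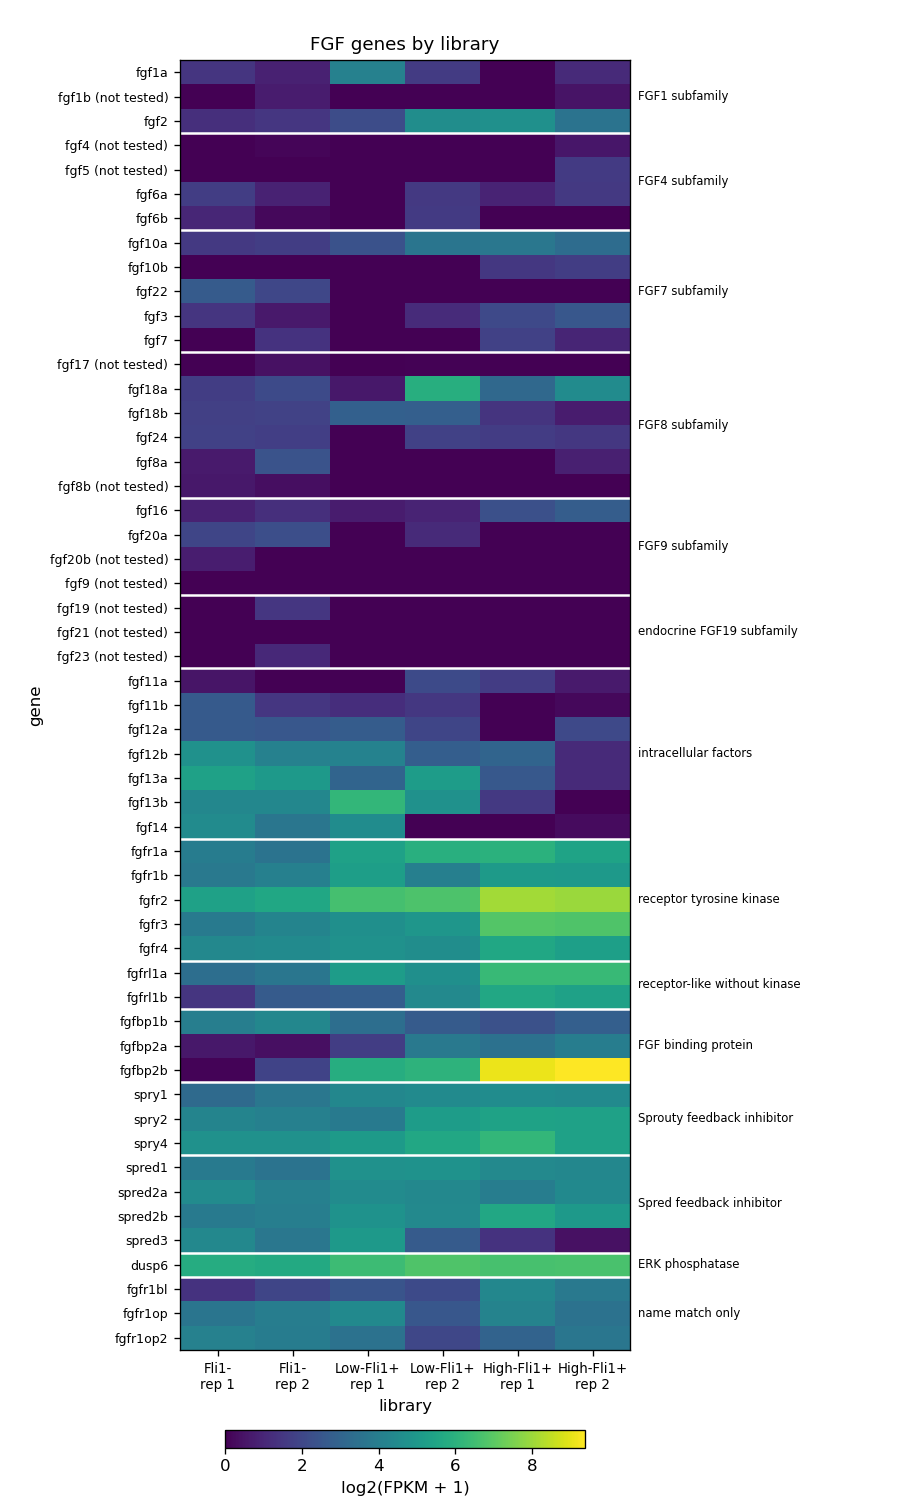
Levels of the 53 FGF genes (rows, grouped by role) in the 6 libraries (columns), as log2(FPKM + 1). Fgfr2, fgfr3, fgfr4, both fgfrl1 genes and fgfbp2b are highest in the High-Fli1+ libraries, fgf13a and fgf13b are lowest there, and most ligand genes are near 0 throughout.

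High-Fli1+ cells held more of 4 of the 5 receptor transcripts, both receptor-like transcripts and 2 of the 3 binding protein transcripts than Fli1- cells, and less fgf13a and fgf13b. On log2(FPKM + 1) values, limma's moderated test called 16 of the 43 genes, 12 higher and 4 lower, at an adjusted p under 0.05 (Benjamini-Hochberg over all 19237 genes tested). The 12 include fgf10b and the 4 include fgf22 and fgf20a, which passed the minimum mean only through the population where each was highest. Over all genes 17.2% were called, 5.79% higher and 11.5% lower. The median log2 fold change was 0.92 over the 43 and -0.35 over all genes tested; the latter became 0.01 with quantile normalization and -0.10 with median-ratio scaling, so fold changes here are best read against that shift. Under quantile normalization 16 of the 43 genes were called higher and 3 lower, and over all genes 1666 were called higher and 1719 lower in place of 1113 and 2203. Both High-Fli1+ libraries lay above both Fli1- libraries for 23 of the 43 genes and below them for 14 (over all genes 21.6% and 44.2%, or 65.8% in either direction). The count of 16 calls fell without either Fli1- library and without either High-Fli1+ library, and rose without either Low-Fli1+ library. Over all genes the count of 3316 fell and rose under the same omissions.

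Low-Fli1+ against Fli1- gave 3 genes higher, fgfbp2b, fgfr1a and fgfr2, and 0 lower by limma. At an unadjusted p under 0.05 there were 10 higher and 3 lower of the 43, beside 1675 and 2299 of all 19237 genes tested. Over all genes 3.23% were called, 2.14% higher and 1.1% lower. The libraries of the 2 populations did not overlap for 24 of the 43 genes, with Low-Fli1+ above for 19 and below for 5 (over all genes 49.4%, 18.9% and 30.5%). These 3 calls rest on the whole set of libraries: the count was 0 without either Low-Fli1+ or either High-Fli1+ library, 2 without either Fli1- library (fgfbp2b and fgf22), 1 with median-ratio scaling and 0 in a fit of the 2 populations alone. Over all genes the count of 622 was likewise 0 without Low-Fli1+ replicate 1, without either High-Fli1+ library and in the 2-population fit, so that no gene of any kind was called there. It was 797 without Low-Fli1+ replicate 2, 586 without Fli1- replicate 1 and 634 without Fli1- replicate 2. High-Fli1+ against Low-Fli1+ gave fgfbp2b, fgfr2 and fgfr3 higher and fgf13b lower. Over all genes 5.37% were called, 1.22% higher and 4.15% lower. Without overlap were 21 of the 43, 14 above and 7 below (over all genes 46.7%, 18.3% and 28.3%). Here the count of 4 became 0 without Fli1- replicate 1 or 2, Low-Fli1+ replicate 1, or High-Fli1+ replicate 1 or 2, and 8 without Low-Fli1+ replicate 2. It was also 0 in a fit of the 2 populations alone. Over all genes the count of 1033 was 0 under each of these 5 omissions and in that fit, and 2262 without Low-Fli1+ replicate 2. The 3 comparisons share libraries pairwise and are not independent of each other.

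**Figure D2:**
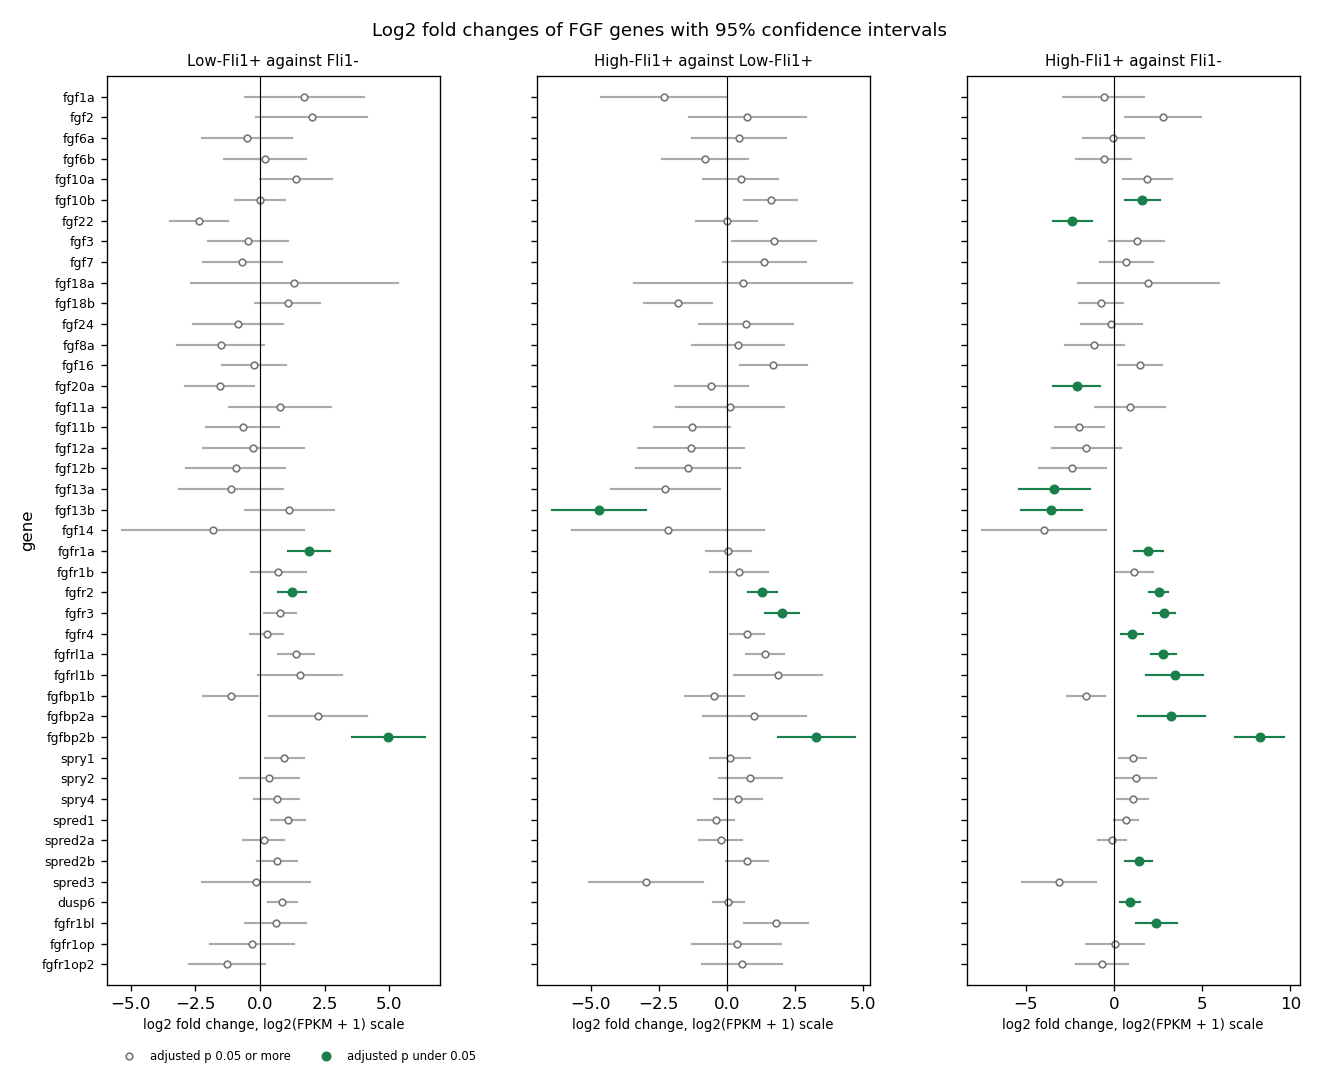
Log2 fold changes (x axis, log2(FPKM + 1) scale) of the 43 tested genes in the 3 comparisons, with 95% confidence intervals as bars. Filled green points are called at an adjusted p under 0.05: 3 in Low-Fli1+ against Fli1-, 4 in High-Fli1+ against Low-Fli1+ and 16 in High-Fli1+ against Fli1-; fgfbp2b lies farthest to the right in each panel.

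Of the 5 receptor genes 4 were called higher in High-Fli1+ relative to Fli1- cells, and 0 lower. Fgfr2, a receptor of epithelium and skeletal mesenchyme, was the most abundant of them in every library. It stood at 40.01 and 47.3 FPKM in the Fli1- libraries, 97.9 and 108 in the Low-Fli1+ libraries and 268 and 247 in the High-Fli1+ libraries. The 3 populations did not overlap. The log2 fold change was 2.54 ± 0.22 (SE) between High-Fli1+ and Fli1- (5.80-fold, adjusted p = 0.00323 by limma), 1.23 ± 0.22 between Low-Fli1+ and Fli1- (adjusted p = 0.0480) and 1.31 ± 0.22 between High-Fli1+ and Low-Fli1+ (adjusted p = 0.0337). It was the single gene of the 16 whose call between the extremes was kept whichever library was left out (highest adjusted p = 0.0495). Its call in Low-Fli1+ against Fli1- was lost without any 1 library (adjusted p between 0.0637 and 0.140), and that between the positive populations without any library but Low-Fli1+ replicate 2 (0.0679 to 0.139). A fit of the 2 populations alone ended both (0.104 and 0.143), as did quantile normalization (0.0525 and 0.0711). Median-ratio scaling ended the first (0.0555). Scaling libraries to equal sums after leaving out the non-coding RNA entry Metazoa_SRP ended the second (0.0556). That entry took 7.78% and 13.2% of summed FPKM in the Fli1- libraries and 1.765% and 8.81% in the Low-Fli1+ libraries. In the High-Fli1+ libraries it took 2.57% and 27.4%.

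Fgfr3, which restrains chondrocyte growth in mammals, was called in both comparisons that involve High-Fli1+ cells. Its values were 13.3 and 17.6 FPKM in the Fli1- libraries, 24.7 and 29.4 in the Low-Fli1+ libraries and 117 and 110.3 in the High-Fli1+ libraries. The populations again did not overlap, and the step from Low-Fli1+ to High-Fli1+ was the larger one. The log2 fold change was 2.81 ± 0.25 (SE) against Fli1- (7.02-fold, adjusted p = 0.00350) and 2.04 ± 0.25 against Low-Fli1+ (adjusted p = 0.0196), while Low-Fli1+ against Fli1- gave 0.78 (adjusted p = 0.159). The first call did not survive omission of High-Fli1+ replicate 2 (adjusted p = 0.0507). The second did not survive omission of any library but Low-Fli1+ replicate 2 (0.0549 to 0.139), nor a fit of the 2 populations alone (0.143).

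Fgfr1a, 1 of 2 zebrafish paralogs of the mammalian FGFR1 gene, was called against Fli1- in both positive populations. It was at 14.4 and 10.8 FPKM in the Fli1- libraries, 40.4 and 59.5 in the Low-Fli1+ libraries and 62.1 and 42.1 in the High-Fli1+ libraries. Both positive populations lay above Fli1- and overlapped each other. Against Fli1-, the log2 fold change was 1.95 ± 0.34 (SE) in High-Fli1+ (3.87-fold, adjusted p = 0.0159), and that in Low-Fli1+ was 1.89 ± 0.34 (adjusted p = 0.0480). Between the positive populations the difference was 0.06 with a 95% interval from -0.77 to 0.88 (adjusted p = 0.954). Leaving out any Fli1- or High-Fli1+ library ended the first call (adjusted p between 0.0727 and 0.135), and leaving out any of the 6 ended the second (0.0649 to 0.225). The second was also lost without the filter (0.0506), with median-ratio scaling (0.0502) and in a fit of the 2 populations alone (0.104).

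The paralog fgfr1b stood at 12.97 and 16.01 FPKM in the Fli1- libraries, 36.9 and 15.6 in the Low-Fli1+ libraries and 33.8 and 32.4 in the High-Fli1+ libraries. Its Low-Fli1+ libraries spanned both other populations, and no comparison was called (1.14 in High-Fli1+ against Fli1-, adjusted p = 0.131). It passed without Low-Fli1+ replicate 1 (adjusted p = 0.0290) or replicate 2 (0.0272) and in a fit of the 2 populations alone (0.0270). Fgfr4 was at 19.7 and 21.6 FPKM in the Fli1- libraries, 26.1 and 23.4 in the Low-Fli1+ libraries and 47.3 and 37.9 in the High-Fli1+ libraries, with a log2 fold change of 1.0 ± 0.25 (SE) between the extremes (adjusted p = 0.0460). This was the smallest change of the 4 receptor calls, and it was lost without any Fli1- or High-Fli1+ library (0.0944 to 0.172) and with equal library sums without Metazoa_SRP (0.0763). Fgfr1bl, listed by name beside the receptors, was at 1.62 and 2.92, 4.45 and 3.35, and 19.5 and 12.98 FPKM in the same order. It passed as higher in High-Fli1+ relative to Fli1- cells by a log2 fold change of 2.40 ± 0.48 (SE, adjusted p = 0.0242), a call lost without any Fli1- or High-Fli1+ library (0.10 to 0.159). How reads were split between the fgfr1 paralogs is not given in the sources used here.

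**Figure D3:**
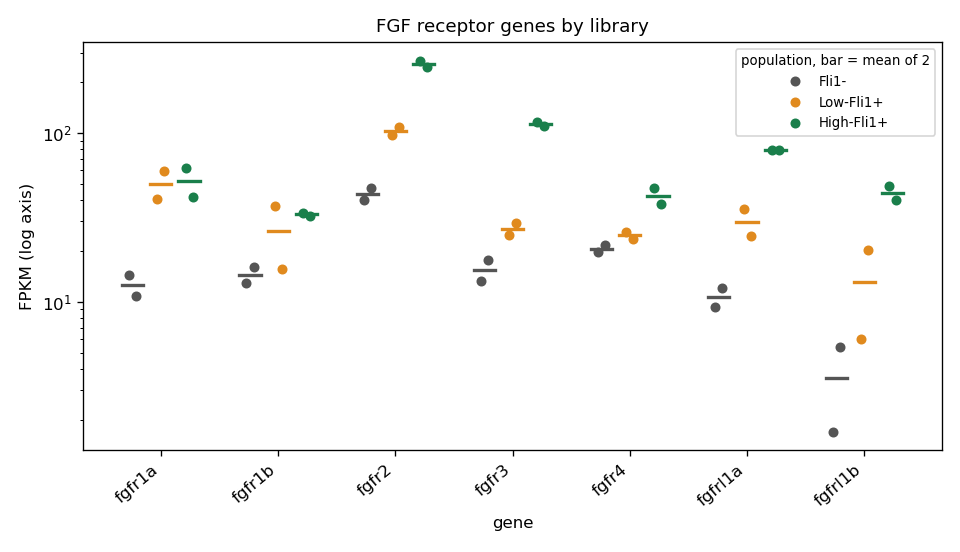
FPKM (log axis) of the 5 receptor genes and 2 receptor-like genes in each library (points) with the mean of 2 libraries (bars), coloured by population. Fgfr2, fgfr3, fgfr4, fgfrl1a and fgfrl1b stand at 3 separate levels, lowest in Fli1- and highest in High-Fli1+, while Low-Fli1+ and High-Fli1+ overlap for fgfr1a and fgfr1b.

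Summed over the 5 receptor genes, FPKM was 100.3 and 113 in the Fli1- libraries, 226 and 236 in the Low-Fli1+ libraries and 528 and 469 in the High-Fli1+ libraries. The make-up of this pool, which does not depend on scaling between libraries, also differed. Fgfr2 made up 39.9% and 41.7% of it in the Fli1- libraries, 43.3% and 45.9% in the Low-Fli1+ libraries and 50.7% and 52.6% in the High-Fli1+ libraries. Fgfr3 held 13.3% and 15.6%, 10.9% and 12.4%, and 22.2% and 23.5%. Its share was thus highest in High-Fli1+ with no overlap. Fgfr1a had its highest share in Low-Fli1+ libraries, at 17.9% and 25.2%, against 14.3% and 9.55% in Fli1- and 11.8% and 8.96% in High-Fli1+. Fgfr4, whose level was highest in High-Fli1+, had its smallest share there, at 8.96% and 8.08% against 11.5% and 9.91% in Low-Fli1+ and 19.6% and 19.1% in Fli1-. In Fli1- libraries fgfr2 led and fgfr4 came next, with fgfr3, fgfr1b and fgfr1a overlapping below them. In High-Fli1+ libraries the order was fgfr2, fgfr3, fgfr1a, fgfr4 and fgfr1b. The lower fgfr1a share there, 8.960%, and the higher fgfr4 share, 8.958%, were almost equal. No test of these shares was made.

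**Figure D4:**
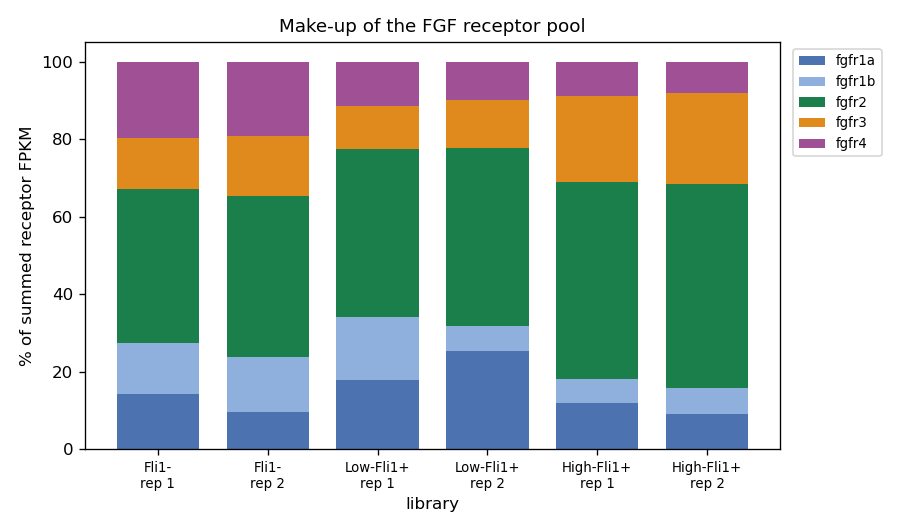
Share of each receptor gene in the summed FPKM of fgfr1a, fgfr1b, fgfr2, fgfr3 and fgfr4, in percent, for each library (bars). Fgfr2 grows from 39.9% in Fli1- replicate 1 to 52.6% in High-Fli1+ replicate 2, fgfr1a is broadest in Low-Fli1+ and fgfr3 in High-Fli1+.

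Both receptor-like genes were called higher in High-Fli1+ relative to Fli1- cells. Fgfrl1 proteins bind FGFs and heparin but lack the kinase domain. Fgfrl1a stood at 9.34 and 11.99 FPKM in the Fli1- libraries, 35.3 and 24.4 in the Low-Fli1+ libraries and 79.5 and 78.9 in the High-Fli1+ libraries (log2 fold change between the extremes 2.79 ± 0.29 (SE), 6.92-fold, adjusted p = 0.00452). Fgfrl1b stood at 1.70 and 5.40, 6.04 and 20.2, and 48.7 and 39.96 FPKM (3.44 ± 0.66, adjusted p = 0.0222). Neither was called in the other 2 comparisons, with fgfrl1a at adjusted p = 0.0648 in Low-Fli1+ against Fli1- and 0.0518 between the positive populations, where it passed at a pseudocount of 5, a minimum mean of 2 FPKM or median-ratio scaling (0.0326 to 0.0478). The call of fgfrl1a was lost without Fli1- replicate 1 or either High-Fli1+ library (0.0527 to 0.0584) and that of fgfrl1b without any Fli1- or High-Fli1+ library (0.111 to 0.196). Per library, the 2 receptor-like genes summed to 0.110 and 0.153 of the kinase receptor sum in Fli1-, to 0.183 and 0.189 in Low-Fli1+ and to 0.243 and 0.253 in High-Fli1+. These ratios were lowest in Fli1- and highest in High-Fli1+, without overlap, and were not tested.

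FGF binding proteins are secreted carriers; the human FGFBP1 protein releases FGFs from the matrix. Fgfbp2b had the largest change of all 43 genes. It was near 0 in Fli1- libraries, at 0.0674 and 2.69 FPKM, then at 55.9 and 66.3 in the Low-Fli1+ libraries and 548 and 665 in the High-Fli1+ libraries. Among the 29126 genes it ranked 90 and 107 by level in the High-Fli1+ libraries, 1410 and 1141 in Low-Fli1+ and 20242 and 13971 in Fli1-. The log2 fold changes were 8.25 ± 0.57 (SE) between the extremes (adjusted p = 0.00241), 4.96 ± 0.57 in Low-Fli1+ against Fli1- (0.0237) and 3.29 ± 0.57 between the positive populations (0.0374). The first was lost without High-Fli1+ replicate 2 (0.0507), the second without either Low-Fli1+ or either High-Fli1+ library (0.0554 to 0.101) and the third without any 1 library (0.0677 to 0.211). A pseudocount of 0.1 ended the second (0.0579) and the third (0.195), as did fits of the 2 populations alone (0.104 and 0.143), and dropping the filter ended the third (0.0590). In both High-Fli1+ libraries its level exceeded that of fgfr2, and in both Low-Fli1+ libraries fgfr2 was the higher of the pair.

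Its paralog fgfbp2a was at 0.533 and 0.292 FPKM in the Fli1- libraries, 2.23 and 12.8 in the Low-Fli1+ libraries and 10.4 and 14.9 in the High-Fli1+ libraries (log2 fold change between the extremes 3.26 ± 0.77 (SE), adjusted p = 0.0387). That call was lost without any Fli1- or High-Fli1+ library (0.163 to 0.248), at a pseudocount of 5 (0.0560) and without the filter on low values (0.0547). Fgfbp1b went the other way, at 15.2 and 19.3 FPKM in the Fli1- libraries, 9.51 and 5.39 in the Low-Fli1+ libraries and 3.96 and 6.16 in the High-Fli1+ libraries. Both positive populations lay below Fli1-, and neither comparison with it passed (-1.60 in High-Fli1+, adjusted p = 0.0589; -1.14 in Low-Fli1+, adjusted p = 0.216). By gene order in the RefSeq assembly fgfbp1b and fgfbp2b are direct neighbours, with 0 coding genes between them.

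Few secreted ligands were called. Over the 25 genes the summed FPKM was 28.2 and 32.9 in the Fli1- libraries, 31.5 and 110.2 in the Low-Fli1+ libraries and 61.8 and 65.0 in the High-Fli1+ libraries. Of 15 tested, 1 was called higher and 2 lower in High-Fli1+ against Fli1- cells, near the shares over all genes. By limma 0 were called in the other 2 comparisons. At an unadjusted p under 0.05 there were 1 higher and 2 lower in Low-Fli1+ against Fli1-, beside 1675 and 2299 of all 19237 genes tested. Between the positive populations there were 3 higher and 2 lower, beside 1568 and 3032 of all genes tested. The called ligands were all of low level. Each passed the minimum mean only through the population where it was highest, so nothing is read from their directions. Fgf10b, of the FGF7 subfamily, was listed at 0 in the 4 Fli1- and Low-Fli1+ libraries and stood at 1.86 and 2.27 FPKM in High-Fli1+ (adjusted p = 0.0423). Fgf22, of the same subfamily, was at 5.47 and 3.04 FPKM in Fli1- and listed at 0 in the 4 positive libraries (adjusted p = 0.0228). Fgf20a, which starts fin regeneration in zebrafish, was at 2.93 and 3.79 FPKM in the Fli1- libraries, 0 and 1.18 in the Low-Fli1+ libraries and listed at 0 in both High-Fli1+ libraries (adjusted p = 0.0483). Without 1 library, fgf10b lost its call in 3 of 6 cases (0.0510 to 0.0639; Fli1- replicate 1 and either High-Fli1+ library), fgf22 in 2 (0.0819 to 0.0873; either High-Fli1+ library) and fgf20a in 4 (0.157 to 0.177; any Fli1- or High-Fli1+ library). Fgf10b was also lost at a pseudocount of 5 and with equal library sums (0.0523 to 0.0641), and fgf20a at a pseudocount of 0.1, with quantile normalization and with equal sums (0.0586 to 0.0717). In Low-Fli1+ against Fli1- cells fgf22 passed without either Fli1- library, without the filter and at a pseudocount of 0.1 (0.0167 to 0.0476). Fgf10b passed between the positive populations without Low-Fli1+ replicate 2, without the filter and at that pseudocount (0.0415 to 0.0487).

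The more abundant ligands differed widely between the Low-Fli1+ libraries. Fgf18a, a skeletal ligand in mammals, was at 2.30 and 3.27 FPKM in the Fli1- libraries, 0.524 and 57.3 in the Low-Fli1+ libraries and 7.96 and 22.1 in the High-Fli1+ libraries. The 2 Low-Fli1+ libraries were its lowest and highest values of all. Fgf2, an angiogenic factor in mammals, stood at 1.43 and 1.79, 3.48 and 23.3, and 25.3 and 10.8 FPKM. Fgf10a, the mesenchymal ligand of the fin bud, stood at 1.93 and 2.24, 4.19 and 11.5, and 12.3 and 8.86 FPKM. Both were above Fli1- in all 4 positive libraries without a call (in High-Fli1+ against Fli1-, fgf2 2.76, adjusted p = 0.0851, and fgf10a 1.89, adjusted p = 0.0732). Each passed under quantile normalization (0.0338 and 0.0230) and without either Low-Fli1+ library or in a fit of the 2 populations alone (0.0266 to 0.0290 for fgf2 and 0.0252 to 0.0297 for fgf10a). In the other subfamilies the most abundant members stayed under 6 FPKM: fgf16 ranged from 0.635 to 5.88 and fgf6a from 0 to 2.24 over the 6 libraries. Fgf16 passed in High-Fli1+ against Fli1- under quantile normalization (adjusted p = 0.0271). The endocrine ligands fgf19 and fgf23 were above 0 in Fli1- replicate 2 alone, at 1.82 and 1.13 FPKM.

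Of the intracellular homologous factors, fgf13a and fgf13b were called lower in High-Fli1+ relative to Fli1- cells. The 7 genes summed to 119 and 86.7 FPKM in the Fli1- libraries, 127 and 74.6 in the Low-Fli1+ libraries and 16.2 and 6.48 in the High-Fli1+ libraries. In both High-Fli1+ libraries 6 of them lay below both Fli1- libraries, of which fgf13a and fgf13b passed the test, and fgf11a lay above. Fgf13b was at 19.2 and 19.3 FPKM in the Fli1- libraries, 73.7 and 25.5 in the Low-Fli1+ libraries and 1.94 and 0 in the High-Fli1+ libraries. It fell by 3.56 ± 0.70 (SE) on the log2 scale against Fli1- (adjusted p = 0.0235) and by 4.70 ± 0.70 against Low-Fli1+ (adjusted p = 0.0270). Fgf13a was at 40.4 and 32.6, 7.15 and 34.9, and 4.98 and 1.15 FPKM, with a log2 fold change of -3.38 ± 0.82 (SE) between the extremes (adjusted p = 0.0411). Without any Fli1- or High-Fli1+ library the calls against Fli1- were lost (0.0686 to 0.212 for fgf13b and 0.113 to 0.304 for fgf13a), and that of fgf13b against Low-Fli1+ was lost without any library but Low-Fli1+ replicate 2 (0.0689 to 0.157). At a pseudocount of 0.1 all 3 calls were lost (0.0564 to 0.0678). That of fgf13a was also lost without the filter (0.0576) and with median-ratio scaling (0.0542), and that of fgf13b against Low-Fli1+ in a fit of the 2 populations alone (0.158). The neuronal marker sum was likewise lowest in High-Fli1+. It was also lower in Low-Fli1+ than in Fli1- (949 to 1393 against 1947 to 2253), where the 7-gene sums overlapped. Fgf13b was higher there without a call (1.14, adjusted p = 0.434 by limma). The median log2 fold change in that comparison was -0.68 over the 7 genes and -0.89 over the neuronal markers. The part of that marker sum in these differences was not tested.

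Of the 8 feedback inhibitors of the Sprouty, Spred and dusp6 groups, dusp6 and spred2b were called higher in High-Fli1+ relative to Fli1- cells and 0 lower. Dusp6, the cytoplasmic phosphatase of ERK, was their most abundant member, at 54.6 and 51.2 FPKM in the Fli1- libraries, 84.5 and 111 in the Low-Fli1+ libraries and 99.3 and 102 in the High-Fli1+ libraries. Both positive populations lay above Fli1- and overlapped each other. The log2 fold change was 0.92 ± 0.23 (SE) between the extremes (1.89-fold, adjusted p = 0.0462) and was 0.86 in Low-Fli1+ against Fli1- (adjusted p = 0.109), and the difference between the positive populations was 0.06 with a 95% interval from -0.51 to 0.62. The call was lost without any Fli1- or High-Fli1+ library (0.134 to 0.177). Per library, dusp6 came to 0.545 and 0.451 of the receptor sum in Fli1-, to 0.374 and 0.469 in Low-Fli1+ and to 0.188 and 0.217 in High-Fli1+. This ratio was lowest in High-Fli1+ without overlap.

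Sprouty proteins block the path from receptors to Ras and ERK. Spry1 was at 8.40 and 12.2 FPKM in the Fli1- libraries, 19.2 and 21.56 in the Low-Fli1+ libraries and 22.8 and 21.62 in the High-Fli1+ libraries. Spry2 was at 17.7 and 15.8, 13.1 and 35.5, and 41.0 and 39.8 FPKM, and spry4, a standard reporter of FGF activity in zebrafish, at 25.6 and 25.6, 34.0 and 48.4, and 72.7 and 40.3. All 3 lay above Fli1- in both High-Fli1+ libraries. By limma 0 of the 3 were called in that comparison, with log2 fold changes of 1.06, 1.22 and 1.05 (adjusted p = 0.0668, 0.135 and 0.101). All 3 had an unadjusted p under 0.05, as did 1900 higher and 4251 lower of all 19237 genes tested. Spry1 passed under quantile normalization (0.0389) and median-ratio scaling (0.0330), spry4 under the latter (0.0452), and spry2 in a fit of the 2 populations alone (0.0192) and without Low-Fli1+ replicate 1 (0.0196) or replicate 2 (0.0208). Spry2 also passed between the positive populations without Low-Fli1+ replicate 2 (0.0381).

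Of the Spred genes, whose mammalian products inhibit Ras through neurofibromin, spred2b was called. It stood at 13.2 and 15.3 FPKM in the Fli1- libraries, 26.2 and 20.4 in the Low-Fli1+ libraries and 48.0 and 32.3 in the High-Fli1+ libraries (log2 fold change between the extremes 1.41 ± 0.31 (SE), adjusted p = 0.0321), a call lost without any Fli1- or High-Fli1+ library (0.0771 to 0.190) and with equal library sums (0.0537). Its paralog spred2a overlapped in all 3 populations, between 14.8 and 22.2 FPKM. Spred1 was highest in Low-Fli1+, at 25.9 and 26.8 FPKM against 13.3 and 10.8 in Fli1- and 20.1 and 19.3 in High-Fli1+, with no overlap and no call (1.08 in Low-Fli1+ against Fli1-, adjusted p = 0.0942). Spred3 had its lowest values in High-Fli1+ libraries, 1.58 and 0.354 FPKM, against 19.7 and 12.1 in Fli1- and 32.3 and 5.51 in Low-Fli1+. Its log2 fold change of -3.14 ± 0.85 (SE) between the extremes did not pass (adjusted p = 0.0571). It passed with a minimum mean of 2 FPKM (0.0477), in a fit of the 2 populations alone (0.0227) and without Low-Fli1+ replicate 1 (0.0225) or replicate 2 (0.0211), and against Low-Fli1+ it passed without Low-Fli1+ replicate 2 (0.0373).

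**Figure D5:**
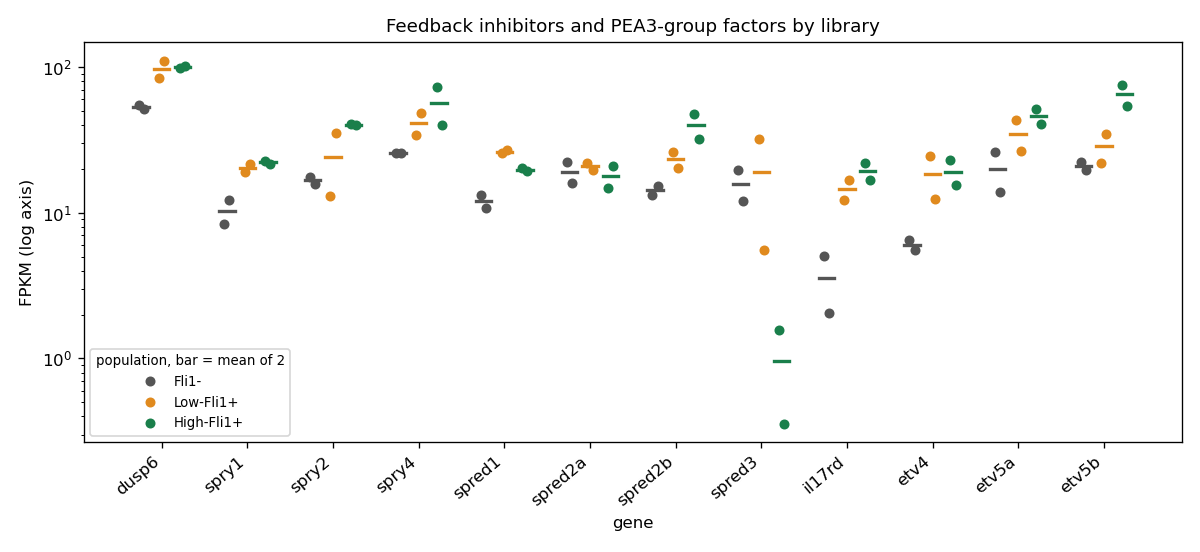
FPKM (log axis) of the feedback inhibitors dusp6, spry1, spry2, spry4, spred1, spred2a, spred2b, spred3 and il17rd and of the PEA3-group factors etv4, etv5a and etv5b, per library (points) with the mean of 2 libraries (bars). The PEA3-group factor etv1, lower in High-Fli1+ than in Fli1- libraries, is not among them. Dusp6, spry1, spry4, spred1, spred2b, il17rd, etv4 and etv5a stand above Fli1- in all 4 positive libraries, and spred3 drops to 1.58 and 0.354 FPKM in High-Fli1+.

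Across all 3 populations, 9 of the 43 genes were lowest in Fli1-, intermediate in Low-Fli1+ and highest in High-Fli1+ with no overlap between any 2 populations, against 4.37% of all genes tested. They were fgfr2, fgfr3, fgfr4, fgfrl1a, fgfrl1b, fgfbp2b, spry1, spred2b and fgfr1bl. Spry1 counts among them by 21.62 against 21.56 FPKM, and its difference between the positive populations was 0.12 on the log2 scale (adjusted p = 0.851). The opposite order was found for 0 of the 43, against 7.74% of all genes tested.

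Outside the family, 22 listed transcriptional targets of FGF signalling were tested. This list and the other pathway lists were chosen with earlier results of these data known, so their counts are no independent test. In High-Fli1+ relative to Fli1- cells 8 of the 22 were called higher and 1 lower. The median log2 fold change of the 22 was 1.17, against -0.35 over all genes. Over all genes 5.79% were called higher and 11.5% lower. At an unadjusted p under 0.05 by limma, 13 of the 22 were higher and 4 lower, beside 1900 and 4251 of all 19237 genes tested. Of the 8, runx2a, runx3 and tbx1 are also regulators of arch and skeletal tissue. The immediate early genes egr1 (1.93, adjusted p = 0.0149 by limma) and fosab (1.51, adjusted p = 0.0344) are 2 more. Whether these changes reflect FGF signalling was not tested. Among the PEA3-group factors etv5b was called, at 22.4 and 19.8 FPKM in the Fli1- libraries, 22.1 and 34.97 in the Low-Fli1+ libraries and 75.7 and 54.2 in the High-Fli1+ libraries (log2 fold change between the extremes 1.56 ± 0.32 (SE), adjusted p = 0.0270). Etv4 stood at 6.52 and 5.53, 24.5 and 12.46, and 22.97 and 15.4 FPKM, and etv5a at 26.3 and 13.8, 43.1 and 26.6, and 51.3 and 40.9. Both lay above Fli1- in all 4 positive libraries without a call (1.5, adjusted p = 0.0662, and 1.22, adjusted p = 0.0962, in High-Fli1+ against Fli1-). Etv4 passed there with quantile normalization, median-ratio scaling or a fit of the 2 populations alone (0.0311 to 0.0354) and without either Low-Fli1+ library (0.0334 to 0.0353), and etv5a with median-ratio scaling (0.0465). Il17rd, the Sef inhibitor of FGF receptors first described in zebrafish, was at 5.07 and 2.05, 12.3 and 16.7, and 21.8 and 16.8 FPKM (2.23 ± 0.46, adjusted p = 0.0266). Among the called targets, the largest changes were in runx3 (3.39, adjusted p = 0.0113), runx2a (3.32, adjusted p = 0.0209) and tbx1 (2.41, adjusted p = 0.0108). The 1 called lower was sp8a (-2.01, adjusted p = 0.0459), for which other settings are not reported. Its paralog sp8b changed by -2.59 without a call (adjusted p = 0.145). The calls of etv5b, il17rd, runx3, runx2a and tbx1 were each lost without any Fli1- or High-Fli1+ library (0.0685 to 0.177), and the count of 9 calls became 0 without any of these 4 libraries.

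In Low-Fli1+ against Fli1- cells 2 targets were called, runx3 (3.47, adjusted p = 0.0339) and tbx1 (2.05, adjusted p = 0.0473), and 0 lower by limma (11 higher and 1 lower at an unadjusted p under 0.05), against 2.14% and 1.1% of all genes. Tbx1 lost this call without any 1 library (0.0627 to 0.171) and runx3 without any but Low-Fli1+ replicate 2 (0.0615 to 0.191). Both were lost in a fit of the 2 populations alone (0.113 and 0.107), and tbx1 also at a pseudocount of 5 (0.0587) and with equal library sums (0.0507). Between the positive populations 0 of 22 were called, with 1 higher and 1 lower at an unadjusted p under 0.05. Of all 19237 genes tested, 1568 were higher and 3032 lower at that unadjusted p there, and 1675 and 2299 in Low-Fli1+ against Fli1-.

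Of 31 intracellular transducers of the pathway, by limma 0 were called higher and 3 lower in High-Fli1+ against Fli1- cells (2 and 7 at an unadjusted p under 0.05), where 5.79% of all genes were called higher and 11.5% lower. By limma 0 of the 31 were called in the other 2 comparisons (4 higher and 0 lower in Low-Fli1+ against Fli1-, and 1 and 7 between the positive populations, at that unadjusted p). Of all 19237 genes tested, 1900 were higher and 4251 lower at that unadjusted p in High-Fli1+ against Fli1-. They numbered 1675 and 2299 in Low-Fli1+ against Fli1-, and 1568 and 3032 between the positive populations. The 3 called lower were the docking protein gene frs3 (-2.67, adjusted p = 0.0229), the ERK kinase gene map2k1 (-2.64, adjusted p = 0.0308) and the scaffold gene ksr1a (-2.06, adjusted p = 0.0215). Of these, map2k1 was at 17.8 and 12.7 FPKM in the Fli1- libraries, 17.9 and 8.15 in the Low-Fli1+ libraries and 2.62 and 0.822 in the High-Fli1+ libraries. Each of the 3 calls was lost without any Fli1- or High-Fli1+ library (0.0774 to 0.246), and that of map2k1 also with equal library sums (0.0525).

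Of 11 coreceptor genes tested, 1 was called higher and 5 lower in High-Fli1+ against Fli1- cells, against 5.79% and 11.5% of all genes. The higher one was anos1b (2.18, adjusted p = 0.0159 by limma), while its paralog anos1a was among the lower ones. The lower ones were led by the neural adhesion gene ncam1b (-4.17, adjusted p = 0.00649), with flrt1a (-2.80, adjusted p = 0.0270), anos1a (-2.57, adjusted p = 0.0149) and flrt1b (-2.36, adjusted p = 0.0243). Of 37 heparan sulfate genes tested, 8 were called higher and 3 lower, beside the same shares over all genes. Ugdh, which makes the glucuronic acid donor of the chain, was at 5.67 and 10.4 FPKM in the Fli1- libraries, 20.3 and 29.4 in the Low-Fli1+ libraries and 59.9 and 64.8 in the High-Fli1+ libraries (2.86 ± 0.36 (SE), adjusted p = 0.00726). The core proteins syndecan sdc2 (2.45, adjusted p = 0.00528) and glypican gpc4 (2.39, adjusted p = 0.00505) rose while the glypican gpc1a fell (-2.52, adjusted p = 0.00841). Sulf1, an extracellular sulfatase that trims the chains, was called higher in Low-Fli1+ than in Fli1- cells (1.45, adjusted p = 0.0411). Its change in High-Fli1+ against Fli1- cells was larger (1.98). It stood at 10.7 and 11.2 FPKM in the Fli1- libraries, 30.4 and 32.9 in the Low-Fli1+ libraries and 44.0 and 48.1 in the High-Fli1+ libraries. Between the positive populations ncam1b (-2.87, adjusted p = 0.0376), gpc1a (-2.45, adjusted p = 0.0236), gpc2 (-1.89, adjusted p = 0.0452) and the sulfatase gene sulf2b (-1.75, adjusted p = 0.0445) were lower and sdc2 (1.49, adjusted p = 0.0410) higher. Omission of libraries is not reported for anos1b. Each other named call against Fli1- in High-Fli1+ cells was lost without either High-Fli1+ library and without either Fli1- library. The exceptions were ugdh and gpc4, which kept theirs without Fli1- replicate 2, and sdc2 without Fli1- replicate 1. That of sulf1 was lost without any 1 library, and the lost values over all these calls ran from 0.0507 to 0.189. Between the positive populations sulf2b and sdc2 lost theirs without any 1 library, and ncam1b, gpc1a and gpc2 without any but Low-Fli1+ replicate 2 (0.0552 to 0.188). All 5 were lost in a fit of the 2 populations alone (0.143 to 0.188), as was sulf1 (0.104), and each of the 5 but gpc1a was lost under at least 3 of the other settings (0.0502 to 0.0792). Flrt1a was lost at a pseudocount of 0.1 (0.0606).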

How the data were processed

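The deposited table holds FPKM per gene and library, made by the authors per the file headers; per the labels' protocols, poly-A RNA enriched from 100 ng of total RNA was reverse transcribed. Aligner, genome build and annotation are not given in the sources used here, and FPKM keep no sequencing depth, so no counting error is given. Of 29144 rows, 18 named by a calendar date were left out. Genes with a mean of at least 0.5 FPKM (19237) were fitted as log2(FPKM + 1) by population over all 6 libraries. The fit used limma 3.58.1 (R 4.3.3) with a variance trend, 3 residual and 2.89 prior degrees of freedom, and Benjamini-Hochberg adjustment over all genes. Every adjusted p is from this model unless the text names an alternative setting or an omitted library. This procedure was also run on simulated log2 values with normal noise, and the outcome is not given here. Such values lack the many zeros of these data, so that run does not bear on the calls. With 2 libraries a population no exact permutation test between 2 populations can reach 0.05. RefSeq (GRCz12tu) gave names for 52 of 53 genes. Named were all called FGF genes, receptors, feedback genes, and the most abundant gene of each other role. Of the pathway lists, the 4 largest called changes in each were named, with etv1, etv4, etv5a, etv5b, il17rd, egr1, fosab, sp8a, sp8b and anos1b. The genes and lists were chosen with earlier results of these data known. Alternatives were other pseudocounts, filters and scalings, fits of 2 populations, the replicate number as a block, and leaving out each library.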

Additional observations from a re-analysis of the deposited data

How the results depend on the processing

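The direction of all 23 calls of FGF genes was kept under every alternative run. For each call the libraries of the 2 populations did not overlap. Only another scaling between libraries could therefore have reversed a direction, and the other alternatives could not. Of the 16 calls between High-Fli1+ and Fli1-, 8 (fgf22, fgfr1a, fgfr2, fgfr3, fgfrl1a, fgfrl1b, fgfbp2b and fgfr1bl) were kept under each alternative that left out no library and gave a value. Under a minimum mean of 2 FPKM fgf10b, fgf20a and fgf22 gave none. Each of these had passed the minimum mean only through the population where it was highest. Nothing is therefore read from the place of fgf22 among the 8. The count of calls between High-Fli1+ and Fli1- was 12 to 23 under these alternatives, beside 2624 to 4968 over all genes. Both counts fell without any Fli1- or High-Fli1+ library and rose without either Low-Fli1+ library. In Low-Fli1+ against Fli1- cells 3 calls became 1 with median-ratio scaling, 0 in a fit of the 2 populations alone and 0 to 2 without 1 library. Between the positive populations 4 calls became 0 in a fit of the 2 populations alone and 0 to 8 without 1 library. Genes without overlap numbered 37 to 42 (High-Fli1+ against Fli1-), 24 to 38 (Low-Fli1+ against Fli1-) and 21 to 38 (High-Fli1+ against Low-Fli1+) without 1 library. Leaving out a library can only add such genes, and the same counts over all genes are not given here. The fgfr2 share of the receptor pool was 39.9% to 41.7%, 43.3% to 45.9% and 50.7% to 52.6% in Fli1-, Low-Fli1+ and High-Fli1+. With the replicate number as a block the counts were 13, 1 and 4. Over all genes they were 2992, 335 and 840, in place of 3316, 622 and 1033. There the calls of fgf10b, fgf20a, fgf13a, fgfr4 and dusp6 between High-Fli1+ and Fli1- (adjusted p 0.0535 to 0.0869), of fgfr1a, fgfr2, tbx1 and sulf1 between Low-Fli1+ and Fli1- (0.0640 to 0.0772), and of sulf2b and gpc2 between the positive populations (0.0552 to 0.0571) did not pass, while spred3, etv4 and etv5a passed between High-Fli1+ and Fli1- (0.0253 to 0.0494). Deviations of same-numbered libraries correlated at 0.0962 (Fli1- and Low-Fli1+), 0.0806 (Fli1- and High-Fli1+) and 0.121 (Low-Fli1+ and High-Fli1+). The labels do not say whether same-numbered libraries were paired, and these values do not settle it. Sequencing depth is unknown, and the cause of these changes was not tested.

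Directions that reversed belonged to differences that had passed no test. In High-Fli1+ against Fli1-, log2 fold changes with quantile normalization, median-ratio scaling and equal library sums without Metazoa_SRP were 0.72, 0.15 and 0.015 for fgf6a and 0.17, 0.21 and 0.022 for spred2a. Without 1 library they ran from -0.44 to 0.36 for fgf6a, -0.33 to 0.15 for spred2a and -0.27 to 0.38 for fgfr1op. In Low-Fli1+ against Fli1-, quantile normalization gave 0.10 for fgf6a and 0.70 for fgf16, and equal sums gave 0.017 for spred3. Without 1 library the ranges were -1.29 to 0.28 for fgf6a, -1.30 to 3.96 for fgf18a, -0.33 to 1.04 for spry2, -0.089 to 0.36 for spred2a, -1.33 to 1.02 for spred3 and -1.25 to 0.65 for fgfr1op. In High-Fli1+ against Low-Fli1+, spred2a was 0.060 with quantile normalization and 0.12 with median-ratio scaling. Without 1 library the ranges were -0.47 to 0.013 for spred2a, -0.46 to 1.98 for fgf2, -0.32 to 1.25 for fgf6a, -0.13 to 1.14 for fgf10a, -2.02 to 3.24 for fgf18a, -0.22 to 0.33 for fgfr1a, -0.15 to 1.04 for fgfr1b, -0.035 to 2.06 for fgfbp2a, -0.0088 to 0.83 for spry4, -0.14 to 0.25 for dusp6, -0.59 to 1.31 for fgfr1op and -0.36 to 0.56 for etv4.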
